A study of Homo sapiens with 15 samples.

Results

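DNA replication and S-phase genes are the genes whose products license origins, unwind and copy the DNA, supply nucleotides, guard the fork and rebuild chromatin behind it. A set of 34 such genes, chosen by symbol from those that mark S phase, with earlier results of these data known, was followed in the table of 59608 genes. All 34 were found, and all 34 were among the 13561 genes tested, whose mean over the libraries reached 10 normalized counts. The cells were MDA-MB-231, an established line of triple-negative breast cancer cells, grown in 2D culture. Dishes received 0.1% DMSO, the vehicle, or 0.5, 5, 50 or 500 nM ZJ-101, a simplified analog of the sponge macrolide superstolide A, and poly-A RNA was collected after 6 h. Each of the 5 groups had 3 biological replicates, separate dishes of 1 cell line, giving 15 libraries. The question was how the transcriptome of adherent cells responds to ZJ-101 before their shape changes, and here it was asked of the replication genes.

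Before S phase the origin recognition complex, CDC6 and CDT1 load MCM2 to MCM7 onto DNA as an inactive ring. CDC45 and the GINS complex then join the ring, and the resulting CMG helicase unwinds the DNA while primase, the PCNA clamp and the polymerases copy it. Most of these genes are transcribed in a wave at the G1/S boundary by E2F transcription factors, so their RNA is a common readout of how many cells are in or near S phase. RNA from a whole dish cannot tell a change in the number of such cells from a change in RNA per cell.

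Each library held between 12415519 and 15284762 reads on genes, and the 34 genes took 0.408% to 0.446% of them. Vimentin (VIM) lay at 13433 to 18414 normalized counts and CD44 at 9275 to 12291, while the estrogen receptor gene ESR1 lay at 0 to 4.30. ERBB2 was present at 1136 to 1328 and EPCAM at 266 to 320. Of markers of other cell types, PTPRC stayed at 0 to 3.53 and ALB at 0 to 1.77, and PECAM1 was found at 201 to 321. The second 0.5 nM library stood farthest from its group. The mean distance of the 34 genes from their group mean was 0.083 there on the log2 scale, against 0.028 to 0.075 in the other libraries. PCNA at 4701, GMNN at 1245, FEN1 at 3580 and DSCC1 at 544 normalized counts all had their highest value of the series in that library. So had CDC45, GINS2, RRM2, RFC2 and NASP, while POLA1, CASP8AP2, BRIP1, BLM and MCM2 had their lowest value there.

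The promoters of the genes on which the results turn are printed here because these genes share a transcriptional class. Each window runs from 250 bases before to 50 bases after a RefSeq start site, on GRCh38.p14, and is written 5′ to 3′ on the strand of the gene. The windows are UHRF1 at chr19:4909251-4909550 (plus strand), CDCA7 at chr2:173354622-173354921 (plus), DTL at chr1:212035498-212035797 (plus), CLSPN at chr1:35769929-35770228 (minus) and CDC6 at chr17:40287629-40287928 (plus). These are the 5 genes that passed the test of a slope over the ordered doses, described below. MCM3 at chr6:52284693-52284992 (minus) and PCNA at chr20:5126573-5126872 (minus), abundant genes that did not pass the test, are shown beside them. Capitals mark words of the E2F type, which were searched on both strands as TTCCCGC together with TTCGCGC, the related word TTGCCGC and finally TTGGCGC.
UHRF1: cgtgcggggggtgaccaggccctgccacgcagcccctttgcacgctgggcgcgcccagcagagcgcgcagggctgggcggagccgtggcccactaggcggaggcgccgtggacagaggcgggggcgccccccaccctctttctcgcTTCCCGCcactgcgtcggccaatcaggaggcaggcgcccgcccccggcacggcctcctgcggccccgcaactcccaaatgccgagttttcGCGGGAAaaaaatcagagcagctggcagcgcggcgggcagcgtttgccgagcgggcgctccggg
CDCA7: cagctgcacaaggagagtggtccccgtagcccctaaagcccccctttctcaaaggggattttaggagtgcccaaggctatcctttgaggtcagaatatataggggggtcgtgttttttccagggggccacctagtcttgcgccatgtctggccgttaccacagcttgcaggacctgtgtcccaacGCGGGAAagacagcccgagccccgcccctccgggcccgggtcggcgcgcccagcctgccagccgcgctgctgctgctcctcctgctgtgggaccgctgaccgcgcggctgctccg
DTL: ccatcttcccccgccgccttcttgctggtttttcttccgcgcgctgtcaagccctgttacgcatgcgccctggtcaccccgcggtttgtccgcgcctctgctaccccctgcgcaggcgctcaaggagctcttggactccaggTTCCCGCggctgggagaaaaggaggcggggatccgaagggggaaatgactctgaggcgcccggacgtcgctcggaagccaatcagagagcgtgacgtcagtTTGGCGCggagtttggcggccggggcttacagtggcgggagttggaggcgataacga
CLSPN: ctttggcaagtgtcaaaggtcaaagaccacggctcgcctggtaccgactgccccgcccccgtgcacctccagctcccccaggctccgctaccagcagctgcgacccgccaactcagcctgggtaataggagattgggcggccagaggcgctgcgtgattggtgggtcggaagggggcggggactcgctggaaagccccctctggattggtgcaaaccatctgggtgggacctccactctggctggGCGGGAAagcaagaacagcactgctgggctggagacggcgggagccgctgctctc
CDC6: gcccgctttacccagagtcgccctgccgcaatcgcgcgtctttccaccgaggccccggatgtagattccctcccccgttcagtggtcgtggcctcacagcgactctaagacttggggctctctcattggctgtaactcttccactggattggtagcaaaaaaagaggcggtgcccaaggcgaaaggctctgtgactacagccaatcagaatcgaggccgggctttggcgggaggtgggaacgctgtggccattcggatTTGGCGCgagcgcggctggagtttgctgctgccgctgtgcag
MCM3: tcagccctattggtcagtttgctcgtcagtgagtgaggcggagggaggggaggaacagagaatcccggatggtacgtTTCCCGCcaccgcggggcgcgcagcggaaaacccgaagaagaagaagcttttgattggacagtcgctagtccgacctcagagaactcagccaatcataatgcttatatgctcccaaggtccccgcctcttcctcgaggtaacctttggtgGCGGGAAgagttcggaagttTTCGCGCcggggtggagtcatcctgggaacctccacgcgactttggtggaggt
PCNA: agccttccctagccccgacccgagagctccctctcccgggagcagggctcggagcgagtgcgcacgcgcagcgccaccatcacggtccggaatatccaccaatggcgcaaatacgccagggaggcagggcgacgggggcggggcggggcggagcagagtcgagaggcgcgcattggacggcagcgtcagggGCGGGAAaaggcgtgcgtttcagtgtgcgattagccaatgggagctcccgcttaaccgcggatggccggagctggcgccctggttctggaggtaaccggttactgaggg

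In the printed UHRF1 window the words begin 104 and 14 bases before the start site, in DTL 108 and 7 bases before it, in CDCA7 65 bases and in CLSPN 5 bases before it. In CDC6 the word begins at the ninth base after the start, MCM3 has 3 words, and PCNA has 1. RefSeq windows were matched for 30 of the 34 genes, 43 windows in all because some genes have several start sites. An E2F word was present in 31 of these 43 windows (72.1%) and in 27 of the 30 genes, while 4553 of all 35116 windows of this length held one (13.0%). All 5 genes that passed by slope had at least 1 such window, and 6 of their 7 windows held a word. The CCAAT box, searched as CCAAT on both strands, was in 30 of the 43 windows (69.8%) and in 34.6% of all windows. The genes were chosen as markers of S phase, a class largely transcribed by E2F, so a high share follows from the choice. Windows were not matched for base composition, and some windows of 1 gene overlap. The words can overlap one another and the CCAAT box, and a match describes the letters of a window, not binding.

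In vehicle-treated cells the replication genes differed widely in level. Per kb of the MANE Select transcript, PCNA, the sliding clamp, was the highest at 3105 ± 74.2 normalized counts (SD, n = 3), followed by MCM3 at 1899 ± 26.3, MCM7 at 1671 ± 27.2 and FEN1, the flap nuclease, at 1584 ± 43.3. The subunits of the MCM ring, which act in equal numbers, did not have equal RNA levels per kb. MCM4 was at 743 ± 8.53, MCM5 at 604 ± 12.9, MCM2 at 467 ± 13.6 and MCM6 at 464 ± 10.3. MCM2 and MCM6 had overlapping ranges, as had MCM5, RFC2 and UHRF1, and also DTL, CDCA7 and HELLS. The lowest means were those of the BRCA1-associated helicase BRIP1 at 99.8 ± 8.26 and the RecQ helicase BLM at 49.3 ± 1.85. The range of BRIP1 overlapped those of E2F8, POLA1 and CHAF1B. A length was available for 33 genes; CASP8AP2 has no MANE Select transcript.

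**Figure D1:**
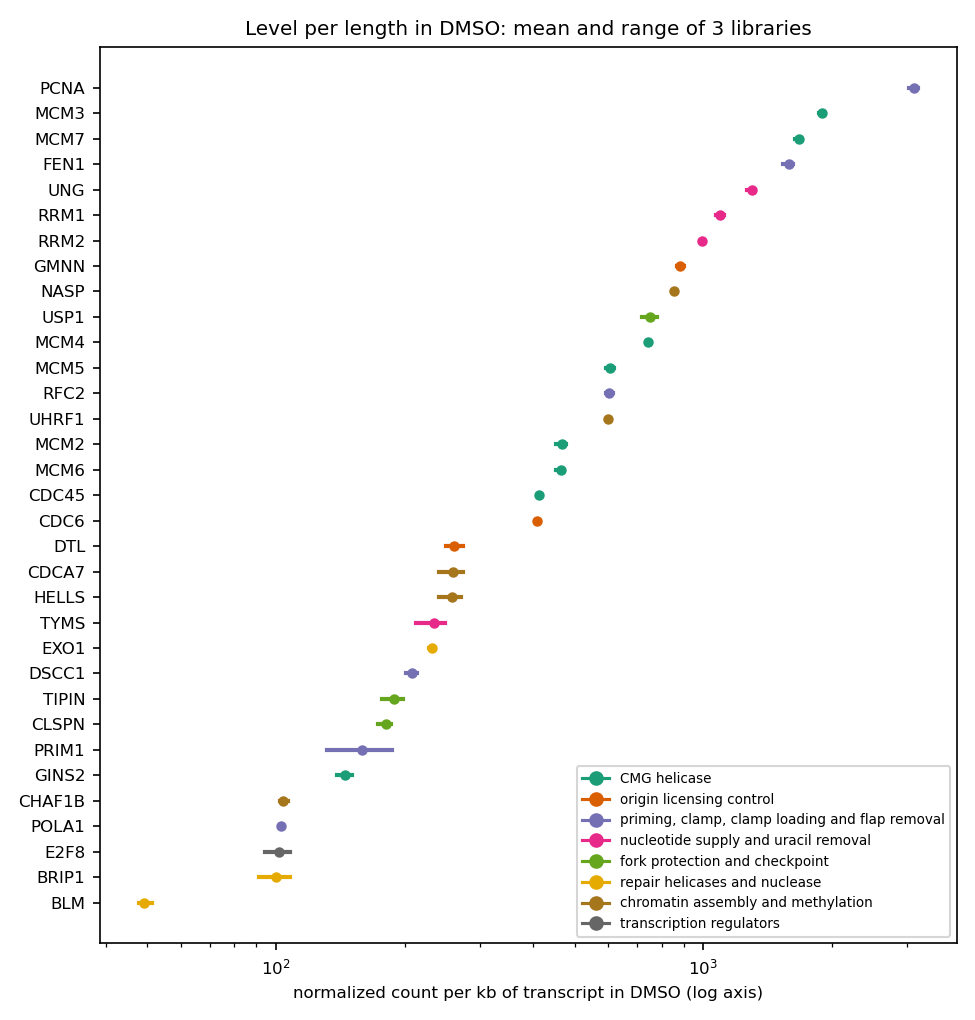
Level of 33 replication and S-phase genes in the 3 DMSO libraries, in normalized counts per kb of transcript on a log axis. Points are means, bars span the lowest to the highest library, and colours give the role of the gene. PCNA is highest at 3105 and BLM lowest at 49.3.

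At the lower doses no gene of the set passed the test, which was limma on log2(normalized count + 1) with Benjamini-Hochberg adjustment over all tested genes and a threshold of 0.05. At 0.5 nM the count was 0 of 34, and 1.17% of all tested genes passed. Without adjustment 3 of 34 had p under 0.05 (14.7% of all genes), CDC45, GINS2 and RRM2, each with a positive difference. Each of the 3 had its highest value of the series in the second 0.5 nM library, the one farthest from its group. At 5 nM the count was 0 of 34 against 2.18% of all genes, and only GMNN, with a negative difference, had an unadjusted p under 0.05 (12.9% of all genes). At 50 nM the count was 0 of 34 against 6% of all genes, and 5 genes had an unadjusted p under 0.05 (17.4% of all genes), CDC45, CDCA7, HELLS, TIPIN and UHRF1, each with a positive difference. edgeR and DESeq2 on recovered reads also gave 0 of 34 at each of these 3 doses. The shares of all genes depended on the libraries used. Over the alternatives the number that passed ranged from 19 to 391 at 0.5 nM and from 113 to 846 at 5 nM. At 50 nM it ranged from 560 to 1276.

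At 500 nM 4 of the 34 genes rose and none fell. These were UHRF1, CDCA7, CLSPN and DTL. Only UHRF1 and CDCA7 passed when the first or second DMSO library or any one 500 nM library was left out. More genes passed without the second 0.5 nM library. In this fit the share that passed, 11.8%, was below the 17.8% of all tested genes, of which 7.69% rose and 10.1% fell. The share of the members was above that of all tested genes with only the groups compared and without the second 0.5 nM library. DESeq2 called the same 4 genes, and edgeR called UHRF1, CDCA7 and DTL. A separate fit took the trend over the ordered groups, from DMSO as rank 0 to 500 nM as rank 4. By this slope 5 of 34 rose and none fell, the same 4 genes and CDC6. Over all tested genes 17.6% passed in either direction, 8.23% rose and 9.33% fell. edgeR gave 5 genes for the slope and DESeq2 gave 8. Without the first or the second 500 nM library only UHRF1 and CDCA7 passed by slope, and without the second 0.5 nM library 8 genes did. A slope that passes does not mean a rise at every dose. The means of UHRF1, DTL, CLSPN and CDC6 at 0.5 nM lay below those in DMSO. The doses share the DMSO libraries, and the slope uses all 15 libraries, so the counts at 500 nM and by slope are not independent of each other.

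Most differences at 500 nM were positive, counted over all 34 genes and so with the 4 that passed. The fold change was above 0 for 27 of 34 genes (50.6% of all tested genes), and the median was 0.08 against 0.003 over all tested genes. By library, 28, 26 and 29 of the 34 genes lay above their DMSO mean at 500 nM, and 14, 28 and 15 in DMSO. The second DMSO library thus reached a similar count of signs. An unadjusted p under 0.05 was reached by 12 genes with a positive and 0 with a negative difference, while 13.8% of all genes reached it with a positive one. The 500 nM libraries lay wholly above those of DMSO for 18 of 34 genes and wholly below for 0, where 18.9% of all tested genes lay above and 19.6% below. At 50 nM 8 genes lay above and 1, POLA1, below, against 11.6% and 13.2% of all genes. The median absolute log2 fold change at 500 nM was 0.084 in the set and 0.125 over all tested genes. The median standard errors were 0.058 and 0.086, so smaller differences could meet these criteria in the set. Genes transcribed in one wave are not independent of each other, so the counts above are a description and carry no test.

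**Figure D2:**
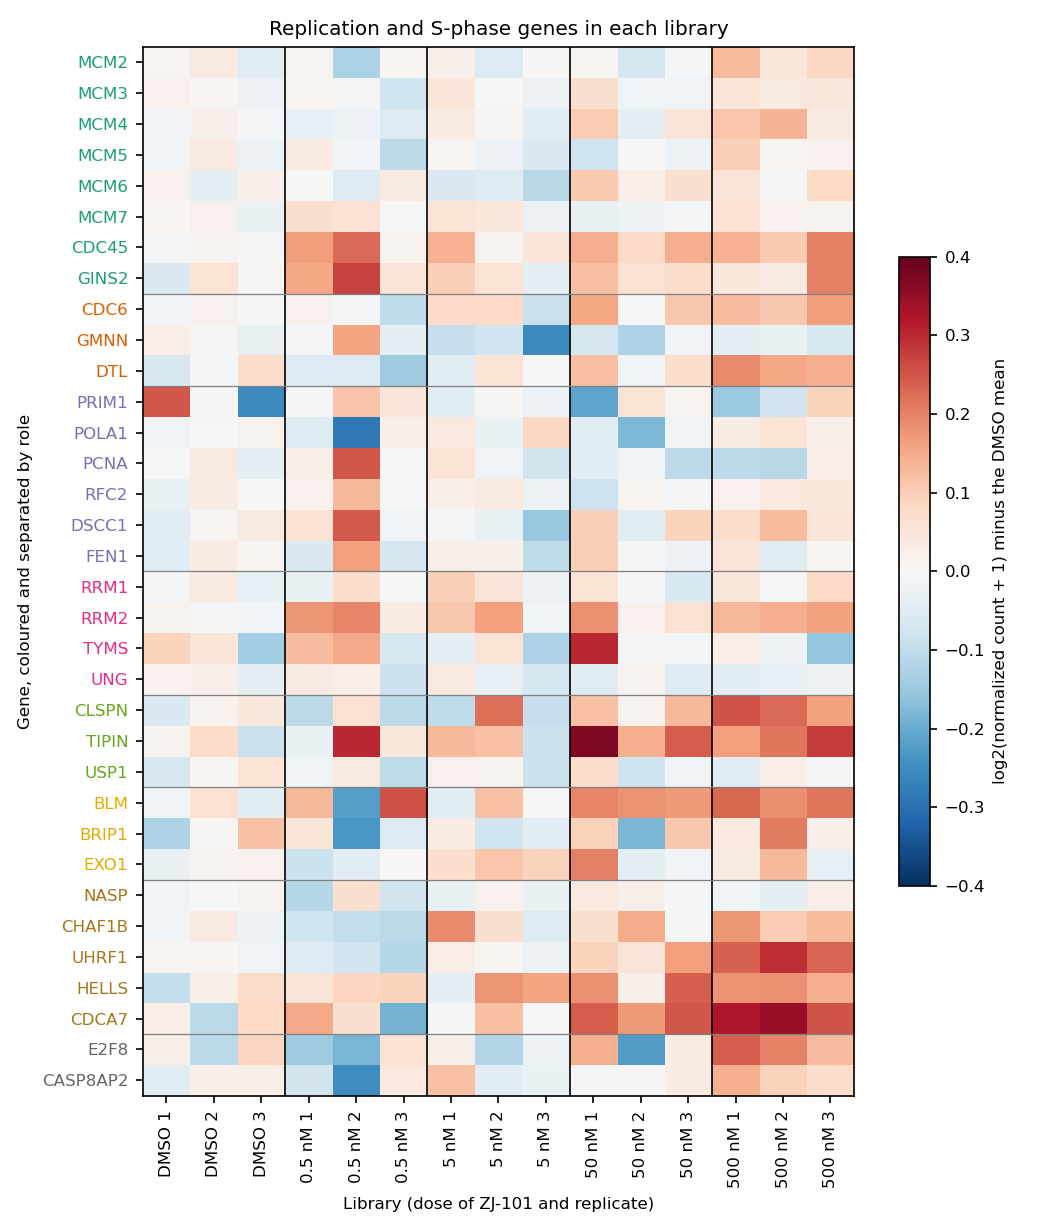
Log2(normalized count + 1) of each of the 34 genes in each of the 15 libraries, minus the DMSO mean of the gene. Rows are genes grouped by role, columns are libraries by dose, and red is above and blue below the DMSO mean. The median over the genes is 0.064 to 0.075 in the 3 libraries at 500 nM.

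The shift was seen in each 500 nM library. The median over the 34 genes stood 0.064, 0.075 and 0.074 above the DMSO mean on the log2 scale, where the median over all tested genes was at most 0.004. The DMSO libraries stood at -0.011, 0.016 and -0.007. At 50 nM the first library stood at 0.094, and the other two at 0.000 and 0.019. The genes took 0.442% to 0.446% of the reads at 500 nM and 0.420% to 0.427% in DMSO. The lower doses ranged from 0.408% to 0.444%, with 0.444% in the first 50 nM library and 0.435% in the second 0.5 nM library, whose median stood at 0.046. TMM scaling left the medians of the members and of all tested genes at 0.08 and 0.003, so it differed too little from the deposited scaling to serve as a check. The sizes were small, since all 34 intervals at 500 nM lay within 0.5 of 0 on the log2 scale, and the largest change, that of CDCA7, was 23.7%.

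**Figure D3:**
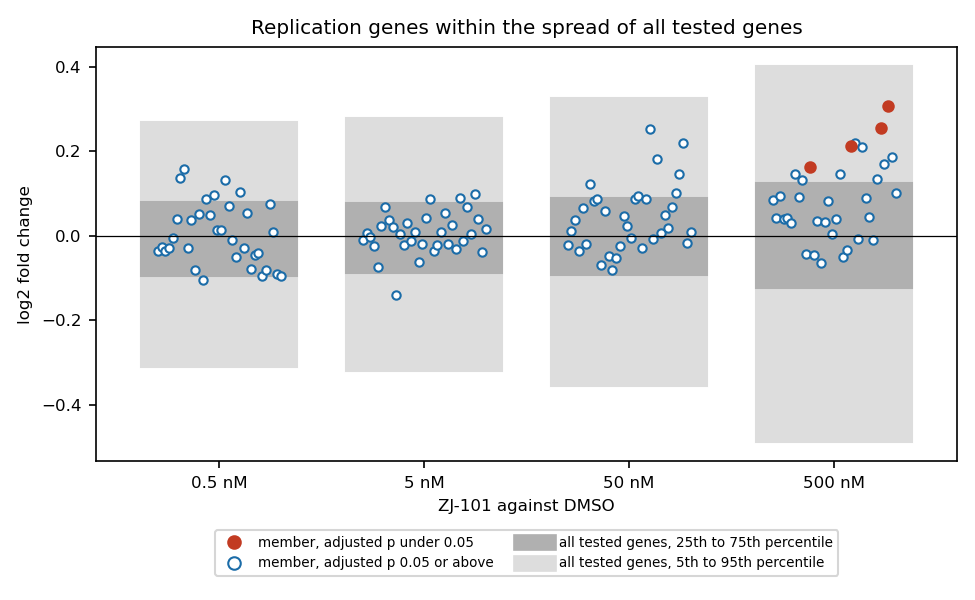
Log2 fold change of the 34 genes at each dose of ZJ-101 against DMSO (points) over the spread of all 13561 tested genes (bands from the 25th to the 75th and from the 5th to the 95th percentile). Filled points have an adjusted p under 0.05. At 500 nM the 34 genes lie between -0.06 and 0.31, inside the outer band of -0.49 to 0.40.

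**Figure D4:**
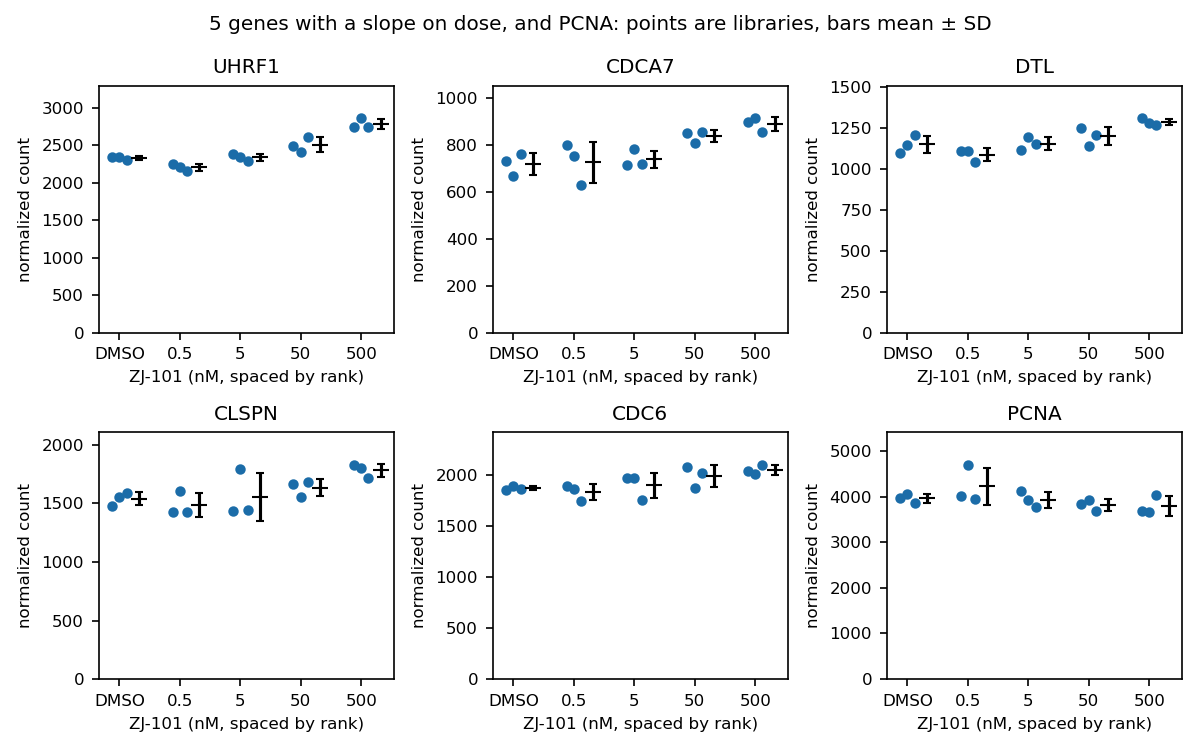
Normalized counts of UHRF1, CDCA7, DTL, CLSPN, CDC6 and PCNA in each of the 15 libraries by dose of ZJ-101 (nM, spaced by rank). Points are libraries and bars are the mean ± SD of 3. For the first 5 genes the 500 nM libraries all lie above the DMSO libraries, while those of PCNA overlap them.

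UHRF1 and CDCA7, which act on chromatin and DNA methylation, held the largest changes of the set at 500 nM. UHRF1 binds hemimethylated DNA behind the fork and brings in the maintenance methyltransferase DNMT1. The gene (chr19:4903080-4962154, plus strand) had 2344, 2345 and 2303 normalized counts in DMSO, 2247, 2209 and 2153 at 0.5 nM, 2376, 2342 and 2291 at 5 nM, 2481, 2413 and 2611 at 50 nM, and 2747, 2858 and 2737 at 500 nM. All libraries at 50 and 500 nM lay above those of DMSO, and all at 0.5 nM lay below them. At 500 nM UHRF1 rose by 19.3% (95% interval 12.5% to 26.5%), a log2 fold change of 0.25 ± 0.04 (SE) with a limma adjusted p of 0.000162. The slope was 0.07 per rank of dose on the log2 scale, with a limma adjusted p of 0.000756. The difference at 0.5 nM was -0.08 ± 0.04 with a limma adjusted p of 0.363, and that at 50 nM did not pass either.

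CDCA7 partners with the remodeler HELLS, and both are needed to keep DNA methylation at heterochromatin. CDCA7 (chr2:173354820-173368997, plus strand) had 732, 668 and 761 normalized counts in DMSO, 799, 752 and 630 at 0.5 nM, 717, 782 and 720 at 5 nM, 851, 810 and 854 at 50 nM, and 900, 915 and 856 at 500 nM. The 50 and 500 nM libraries all lay above the DMSO libraries, and the lower doses overlapped them. The rise at 500 nM was 23.7% (95% interval 11.1% to 37.8%), or 0.31 ± 0.07 (SE) on the log2 scale with a limma adjusted p of 0.00643. For the slope the limma adjusted p was 0.00185. At 50 nM the smallest adjusted p of the set was that of CDCA7, 0.0944.

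The other 3 chromatin genes did not pass. HELLS had 754, 820 and 848 normalized counts in DMSO and 913, 916 and 893 at 500 nM, without overlap, and its difference of 0.17 ± 0.07 (SE) had a limma adjusted p of 0.0871. The CAF-1 subunit gene CHAF1B, whose product deposits new histones, had 461, 476 and 458 in DMSO and 526, 499 and 508 at 500 nM, a difference of 0.13 with a limma adjusted p of 0.169. NASP, a histone H1 and H3-H4 chaperone, differed by -0.01, with overlapping libraries, and the near-identical copy NASPP1 could share its reads. In this role group 2 of 5 genes rose, where 7.69% of all tested genes did, and the median log2 fold change was 0.17, against 0.003 over all tested genes.

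Of the 3 genes that control licensing 1, DTL, rose at 500 nM, where 7.69% of all tested genes did, and 2, DTL and CDC6, rose by slope, where 8.23% of all tested genes did. DTL is the substrate receptor of the CRL4 ubiquitin ligase, which removes CDT1 from PCNA-loaded chromatin in S phase. DTL (chr1:212035553-212107400, plus strand) had 1101, 1145 and 1208 normalized counts in DMSO, 1110, 1110 and 1043 at 0.5 nM, 1115, 1195 and 1153 at 5 nM, 1251, 1142 and 1208 at 50 nM, and 1312, 1281 and 1273 at 500 nM. Only the 500 nM group lay wholly above DMSO. The rise was 12% (95% interval 4.05% to 20.5%), with a limma adjusted p of 0.0299 at 500 nM and 0.016 for the slope. The DTL call at 500 nM held in 18 of 24 alternative analyses, and was lost without a filter and when the first or second DMSO library or any one 500 nM library was left out. Its slope passed in 22 of 24, not without the first or the second 500 nM library.

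CDC6, the ATPase that loads the MCM ring, had 1853, 1890 and 1859 normalized counts in DMSO, 1891, 1858 and 1742 at 0.5 nM, 1970, 1969 and 1756 at 5 nM, 2080, 1868 and 2012 at 50 nM, and 2033, 2011 and 2098 at 500 nM. The 500 nM libraries lay above those of DMSO, and the 3 lower doses overlapped them. The CDC6 slope had a limma adjusted p of 0.031 and passed in 19 of 24 alternative analyses, not when any one 500 nM library or the first 50 nM library was left out or without a filter, while the comparison at 500 nM, a difference of 0.13 ± 0.05 (SE) on the log2 scale, had 0.0936. Geminin (GMNN), the inhibitor of CDT1, had 1136, 1119 and 1094 in DMSO, 1048, 1059 and 935 at 5 nM, and 1086, 1096 and 1067 at 500 nM. The 5 nM libraries of GMNN all lay below DMSO, a difference of -0.14 ± 0.06 (SE) with a limma adjusted p of 0.291, and those at 500 nM overlapped DMSO.

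Of the fork protection and checkpoint genes 1 of 3 rose, CLSPN, where 7.69% of all tested genes did, and the median log2 fold change was 0.21, against 0.003 over all tested genes. Claspin (CLSPN) couples stalled forks to activation of the checkpoint kinase CHK1. The gene (chr1:35720218-35769978, minus strand) had 1476, 1553 and 1586 normalized counts in DMSO, 1429, 1603 and 1429 at 0.5 nM, 1433, 1790 and 1442 at 5 nM, 1668, 1552 and 1681 at 50 nM, and 1830, 1798 and 1718 at 500 nM. The 500 nM group lay above DMSO without overlap, and 1 library at 5 nM, at 1790, reached the same level. CLSPN rose by 15.9% at 500 nM (95% interval 4.39% to 28.6%) with a limma adjusted p of 0.0474, and its slope had 0.0252. This call was close to the threshold. It held in 13 of 24 alternative analyses, and edgeR gave an adjusted p of 0.0503. It was also lost without a filter and when any one DMSO or 500 nM library, the first 0.5 nM library, the first 50 nM library or the third 50 nM library was left out. The CLSPN slope passed in 21 of 24, not when any one 500 nM library was left out.

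TIPIN, which with TIMELESS tethers claspin to the fork, had 329, 343 and 306 normalized counts in DMSO, 319, 401 and 335 at 0.5 nM, 357, 353 and 307 at 5 nM, 421, 360 and 385 at 50 nM, and 365, 378 and 395 at 500 nM. Its 50 and 500 nM libraries lay above DMSO. The differences were 0.25 ± 0.09 (SE) at 50 nM and 0.22 ± 0.09 (SE) at 500 nM, the latter with a limma adjusted p of 0.105, and exons of the pseudogene RPL9P25 cover 21.1% of the exon bases of TIPIN. USP1, which removes ubiquitin from PCNA and FANCD2, had 2587, 2721 and 2810 in DMSO and 2623, 2757 and 2692 at 500 nM, with overlap.

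None of the 8 genes of the CMG helicase passed at 500 nM, where 17.8% of all tested genes did, and all 8 differences were positive, as were 50.6% over all tested genes. The highest was that of CDC45, which had 770, 781 and 770 normalized counts in DMSO, 868, 906 and 782 at 0.5 nM, 853, 782 and 799 at 5 nM, 856, 815 and 855 at 50 nM, and 851, 831 and 889 at 500 nM. Every treated group of CDC45 lay above DMSO without overlap, in an order that did not follow the dose. Its difference at 500 nM was 0.15 ± 0.06 (SE) on the log2 scale with a limma adjusted p of 0.0845, and that at 0.5 nM was 0.14 ± 0.06 (SE) with 0.27. GINS2 had 366, 396 and 382 in DMSO and 392, 390 and 439 at 500 nM, with overlap.

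The MCM ring genes differed by 2.09% to 6.8% at 500 nM. Their 95% intervals reached from -3.62% for MCM5 to 13.7% for MCM2 and MCM4. MCM4 had 2995, 3059 and 3004 normalized counts in DMSO and 3261, 3320 and 3096 at 500 nM, MCM2 had 1615, 1642 and 1551 against 1749, 1655 and 1698, and MCM3 had 5890, 5853 and 5735 against 6026, 5974 and 6008. These 3 genes are among the 18 without overlap between the groups, whereas MCM5, MCM6 and MCM7 overlapped. Exons of an unnamed gene, ENSG00000285600, cover 23.6% of the exon bases of MCM2. MCM6 was the gene of the set with the smallest adjusted p in the step from 5 to 50 nM, from 1671, 1681 and 1613 to 1872, 1774 and 1819, a difference of 0.14 ± 0.04 (SE) with a limma adjusted p of 0.0731.

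Among the 6 genes of priming, clamp, clamp loading and flap removal none passed at 500 nM, where 17.8% of all tested genes did, and the median log2 fold change was 0.02, against 0.003 over all tested genes. With so few genes a count of 0 is near that share. PCNA had 3961, 4057 and 3867 normalized counts in DMSO, 4019, 4701 and 3952 at 0.5 nM, 4118, 3918 and 3763 at 5 nM, 3850, 3925 and 3682 at 50 nM, and 3682, 3666 and 4036 at 500 nM. The groups overlapped, and the difference at 500 nM was -4.29% (95% interval -12.2% to 4.35%). FEN1 had 3097, 3269 and 3212 in DMSO and 3307, 3087 and 3207 at 500 nM, a difference of 0.225% (95% interval -7.9% to 9.06%), and the near-identical copy FEN1P1 could share its reads. PRIM1, the catalytic primase subunit, was the least precise, with 266, 225 and 188 in DMSO and 202, 212 and 238 at 500 nM, and an interval of -17.3% to 13.6%, and it shares 19.1% of its exon bases with HSD17B6, NACA or another gene. POLA1, the catalytic subunit of polymerase alpha, RFC2 of the clamp loader and DSCC1 of the cohesion clamp loader differed by 0.04, 0.03 and 0.08 on the log2 scale.

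None of the 4 genes of nucleotide supply and uracil removal passed at 500 nM, a count near the 17.8% of all tested genes for so small a group. RRM2, the regulated small subunit of ribonucleotide reductase, had 3264, 3217 and 3207 normalized counts in DMSO, 3647, 3699 and 3294 at 0.5 nM, 3480, 3618 and 3208 at 5 nM, 3667, 3269 and 3370 at 50 nM, and 3539, 3569 and 3610 at 500 nM. RRM2 lay above DMSO without overlap at 0.5, 50 and 500 nM, and the difference at 500 nM of 0.15 ± 0.05 (SE) had a limma adjusted p of 0.0708. Its partner RRM1, the large subunit, had 3426, 3520 and 3357 in DMSO and 3542, 3435 and 3620 at 500 nM, with overlap. Thymidylate synthase (TYMS) had 402, 390 and 343 in DMSO and 384, 372 and 339 at 500 nM, and 47.9% of its exon bases are shared with ENOSF1 or TYMSOS. The uracil glycosylase UNG differed by -2.3% (95% interval -8.26% to 4.05%).

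At 500 nM 0 of 3 repair helicases and nuclease and 0 of 2 regulators of transcription passed, where 17.8% of all tested genes did, again a count near that share in groups of this size. BLM had 255, 269 and 251 normalized counts in DMSO, 282, 221 and 308 at 0.5 nM, 250, 280 and 259 at 5 nM, 296, 292 and 290 at 50 nM, and 303, 293 and 299 at 500 nM. The 50 and 500 nM libraries of BLM were close together and above DMSO, and those at 0.5 nM were spread on both sides. The difference at 500 nM was 0.21 ± 0.09 (SE) with a limma adjusted p of 0.145. BRIP1 and the nuclease EXO1 overlapped DMSO, with differences of 0.09 and 0.04. E2F8, a repressor of the E2F wave, had 382, 349 and 400 in DMSO, 416, 322 and 384 at 50 nM, and 444, 432 and 410 at 500 nM, a difference of 0.19 ± 0.09 (SE) with a limma adjusted p of 0.177. CASP8AP2, which is needed for histone gene expression, differed by 0.10.

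**Figure D5:**
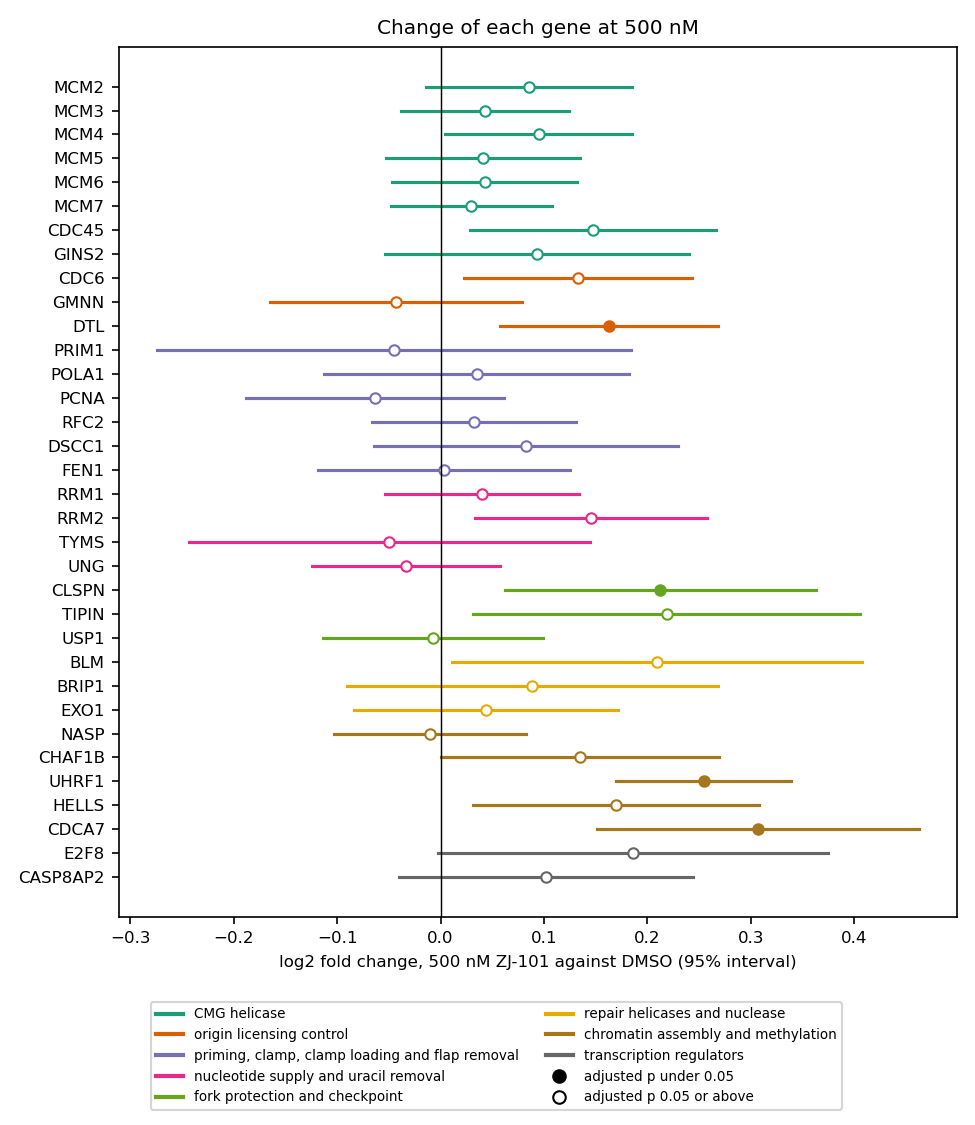
Log2 fold change of each of the 34 genes at 500 nM ZJ-101 against DMSO, with its 95% interval. Colours give the role, and filled points have an adjusted p under 0.05. The 4 filled points, DTL, CLSPN, UHRF1 and CDCA7, lie between 0.16 and 0.31.

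In the steps from 5 to 50 nM and from 50 to 500 nM, the 2 that were tested, no gene of the set passed. From 5 to 50 nM the limma count was 0 of 34 against 5.01% of all tested genes, and 4 genes had an unadjusted p under 0.05 (17.6% of all genes), CDCA7, MCM6, TIPIN and UHRF1. edgeR and DESeq2 gave 0. From 50 to 500 nM the limma count was 0 of 34 against 2.28% of all tested genes, and 3 genes had an unadjusted p under 0.05 (13.1% of all genes), E2F8, MCM2 and UHRF1. edgeR gave 0, and DESeq2 gave 1, UHRF1, with an adjusted p of 0.0352. UHRF1 differed by 0.10 ± 0.04 (SE) in the lower and by 0.15 ± 0.04 (SE) in the upper step, with limma adjusted p values of 0.202 and 0.0551.

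Genes that work beside the 34 in replication moved in both directions at 500 nM. Of 50 tested genes of the fork and the origin 6 rose and 1 fell, with a median log2 fold change of 0.06. ORC5 of the origin recognition complex rose by 0.38 ± 0.08 (SE) on the log2 scale, from 327 ± 7.60 to 427 ± 5.12 normalized counts (SD, n = 3). CHTF18 of the clamp loader for cohesion and MCM10, which activates the helicase, both rose by 0.32, to 735 ± 58.1 and 1246 ± 45.3. MCMBP, the binding partner of MCM subunits, fell by 0.15.

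Of 17 further genes of nucleotide supply 3 rose and 2 fell. CAD, which starts pyrimidine synthesis, rose by 0.35 ± 0.09 (SE), CTPS1, which makes CTP, by 0.26 ± 0.05, and ATIC, of purine synthesis, by 0.15 ± 0.05. The salvage kinase DCK fell by 0.27 and RRM2B, the p53-induced subunit of ribonucleotide reductase, fell by 0.22. Of 23 genes of E2F, DREAM and the S-phase cyclins 1 rose and 1 fell. The phosphatase gene CDC25A rose by 0.32 ± 0.06, from 730 ± 11.2 to 911 ± 36.8 normalized counts. E2F1, an activator of the wave, fell by 0.18, from 1683 ± 60.3 to 1485 ± 64.3, with a limma adjusted p of 0.0435.

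Of 29 genes of the checkpoint and of fork repair 6 rose and 2 fell. The kinase ATR rose by 0.31, the Fanconi gene FANCA by 0.30 and the BRCA2 partner PALB2 by 0.25, while RMI2, a partner of BLM, fell by 0.30 and the kinase WEE1 fell by 0.20. In a list of 14 further genes of chromatin assembly and methylation 4 rose and none fell. TONSL and MMS22L, which form a complex that reads new histones at damaged forks, rose by 0.31 and 0.21, and DNMT1, the methyltransferase that UHRF1 recruits, rose by 0.19 ± 0.06 (SE), from 4938 ± 109 to 5652 ± 192 normalized counts. The shares of all these lists, from the fork and origin to chromatin assembly, can be read beside the 7.69% of all tested genes that rose and the 10.1% that fell.

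Genes of G2 and mitosis, which mark the next phases, were counted in the same way. Of 52 tested G2/M genes 3 rose and 3 fell at 500 nM, where 7.69% of all tested genes rose and 10.1% fell. The median log2 fold change of this list was -0.01. G2E3, LBR and RANGAP1 rose by 0.29, 0.22 and 0.14, and CDC25C, ECT2 and TTK fell by 0.34, 0.15 and 0.15. In the slope on dose 2 of the 52 G2/M genes rose and 7 fell, where 8.23% of all tested genes rose and 9.33% fell. By slope 6 of 50 genes rose and 0 fell in the fork and origin list, 2 of 17 rose and 2 fell in nucleotide supply, 2 of 23 rose and 1 fell in the E2F, DREAM and cyclin list, 6 of 29 rose and 0 fell in checkpoint and fork repair, and 3 of 14 rose and 0 fell in chromatin assembly and methylation. The difference between the G2/M list and the replication genes was not tested.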

How the data were processed

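Poly-A RNA of MDA-MB-231 cells was sequenced in paired reads. The authors used HISAT2 to align the reads on hg38 and HTSeq to count those of each gene, and scaled the counts by DESeq2 size factors. The deposited signal values are these normalized counts, 1 table for 15 libraries. The annotation was GENCODE, current at the time. Its release number, the tool versions and strandedness are not given in the sources used here. Size factors lay between 0.916 and 1.13, and whole reads were recovered from the steps of the values, 12415519 to 15284762 per library, with 100% of values whole within 0.001. On these reads edgeR called 2432 and DESeq2 2210 of all genes at 500 nM, where limma called 2409.

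The test was limma 3.58.1 (R 4.3.3) with a variance trend on log2(normalized count + 1), the groups in 1 fit with 10 residual degrees of freedom, p adjusted by Benjamini-Hochberg over 13561 genes. Fold changes on this scale understate those of low genes. A second fit took the rank of the dose as a number. The libraries have no known batches. Alternatives were pseudocounts of 0.5 and 5, no filter, a mean of at least 50, a replicate block, TMM scaling, edgeR 4.0.16 and DESeq2 1.42.0 on recovered reads, each library left out and only the groups compared, or for the trend only the 12 treated libraries. The scripts were tested on simulated data. Positions and lengths are from GENCODE release 44 (GRCh38), promoters from RefSeq (GRCh38.p14). All 34 members are named, and of each related list up to 3 genes with the largest rise and 3 with the largest fall among those that passed at 500 nM. The members, lists and tests were chosen with earlier results of these data known.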

Additional observations from a re-analysis of the deposited data

How the results depend on the processing

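UHRF1 and CDCA7 rose at 500 nM and by slope in all 24 alternatives, with adjusted p of at most 0.00186 and 0.0469 at 500 nM. Over the 34 genes and 24 alternatives at 500 nM, 787 of 816 results kept their side of the threshold and direction, 17 lost the call, 12 gained it and 0 called results reversed, while 5 genes without a call changed sign in 8 cases. At 500 nM the count of 4 became 2 without a filter and 10 with only the groups compared, which added BLM, CDC45, CDC6, HELLS, RRM2 and TIPIN, and ranged from 2 to 8 with 1 library left out. It was 2 (UHRF1 and CDCA7) without DMSO replicate 1 or 2 or any 500 nM library, and 8 without the second 0.5 nM library, which added BLM, CDC45, RRM2 and TIPIN. The slope count of 5 became 8 with DESeq2 and ranged from 2 to 8, with 2 without the first or the second and 3 without the third 500 nM library, and 8 without the second 0.5 nM library. At 50 nM the count of 0 became 1 (CDCA7) with only the groups compared and ranged from 0 to 1, with TIPIN gained without the second and CDCA7 without the third 0.5 nM library. From 5 to 50 nM it ranged from 0 to 1 (MCM6, without the second 0.5 nM library). From 50 to 500 nM it became 1 (UHRF1) with a mean of at least 50 and with DESeq2, and ranged from 0 to 1 (UHRF1, without the second 0.5 nM, the third 0.5 nM or the third 50 nM library). The cause was not tested. At 0.5 and 5 nM the count was 0 in all 24.

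Same-numbered libraries of different groups had residual correlations of -0.085 to 0.096, and differently numbered ones -0.130 to 0.123. Whether same-numbered dishes were handled together is not stated, and weak correlations cannot settle it. With a replicate block the count was 4 at 500 nM, 6 for the slope and 0 in the other comparisons, while over all tested genes it was 2506 at 500 nM and 2371 for the slope.

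Over all tested genes the 159 calls at 0.5 nM ranged from 19 (without the first DMSO library) to 391 (without the third 0.5 nM library), and were 21 with only those groups. The 295 at 5 nM ranged from 113 (without the first DMSO library) to 846 (only those groups), and were 623 without the second 0.5 nM library. Without that library the 814 at 50 nM became 1276, the 679 from 5 to 50 nM 1129 and the 309 from 50 to 500 nM 630, and the last fell to 139 without the second 50 nM library. The 814 fell to 560 without the first 50 nM library and to 566 without the second DMSO library. The 679 fell to 424 without the third 5 nM library. The 2409 at 500 nM became 3294 with only those groups, 3097 without the second 0.5 nM library and 2023 without a filter, and the 2381 by slope became 2530 with DESeq2, 2688 without the second 0.5 nM library and 1783 to 1875 without 1 of the 500 nM libraries. Without the second DMSO library the 2409 became 1795, and without 1 of the 500 nM libraries it became 1894 to 1934. The counts of the members and of all genes did not always move the same way. With the replicate block the slope gained a member while all genes fell from 2381 to 2371, and from 50 to 500 nM without the third 50 nM library UHRF1 was gained while all genes fell from 309 to 233.

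With 3 libraries a group the median standard error of a member was 0.058 on the log2 scale and differences of that size were not detectable. The p-values measure the spread between dishes of 1 cell line.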
